A study of Mus musculus with 6 samples.

Results

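Lymphocytes enter, cross and leave tissues by way of adhesion molecules, and the transcripts of 9 such genes were read in B1a cells of the peritoneal cavity (PC), the fluid-filled space around the abdominal organs. The genes are *Itga4*, *Itgb1*, *Itgb7*, *Itgal*, *Itgb2*, *Selplg*, *Cd44*, *Icam1* and *Icam2*. They were chosen by gene name, and every probe that carries one of these names in the array files was read, which gave 9 of 36163 gene names and 17 of the 55681 non-control probes. The samples were 3 arrays of PC B1a cells from p40-/- CD25-/- mice (knockout) and 3 from p40-/- CD25+/- mice (control), all 7-week-old females on the C57Bl/6 background. CD25 is the α chain of the IL-2 receptor (*Il2ra*). Both genotypes lack p40 (*Il12b*), the subunit that IL-12 and IL-23 share, and the control mice carry 1 CD25 allele. The comparison therefore reads the loss of the remaining CD25 allele in mice without p40, together with what follows from it in the animal. The paper reports that knockout mice of this kind spontaneously develop severe autoimmune cholangitis, with more T cells in the cavity. Loss of CD25 in B1a cells and this disease cannot be told apart here. Each sample pooled cells of at least 3 mice according to the series' design text. The cells were sorted on surface markers that include CD5 and the integrin subunit CD11b, so the presence of these markers is fixed by the sort.

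Integrins are pairs of an α and a β chain that bind ligands on other cells or in the matrix, and their grip is switched on from inside the cell by talin and kindlin. α4 (*Itga4*) pairs with β1 (*Itgb1*) to bind VCAM-1 and fibronectin, and with β7 (*Itgb7*) to bind MAdCAM-1, the addressin of gut vessels. αL (*Itgal*) pairs with β2 (*Itgb2*) as LFA-1, which binds the ICAM proteins. PSGL-1 (*Selplg*) is the mucin that selectins bind once it is glycosylated, and CD44 binds hyaluronan. PC B cells move between the cavity, the omentum and the gut, and chemokines and integrins guide such movement.

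A probe reports 1 stretch of a transcript, and 5 of the 9 genes had more than 1 probe. Probe sequences of *Itga4*, *Itgb1* and *Cd44* are shown because values are compared below between probes of the same gene. By their position in the transcript they are taken to lie in the protein-coding part, and no annotation of coding regions was used here. They are copied from the array files, 5′ to 3′ in the sense of the transcript, with coordinates on mm9. The *Itga4* probe (chr2:79153985-79155115, plus strand) is 60 bases long but covers 1131 bases of the chromosome, so it crosses a splice junction. So does the first *Itgb1* probe (chr8:131250081-131255976, plus strand), which covers 5896 bases. The second *Itgb1* probe (chr8:131246349-131246408, plus strand) lies in a single stretch. The *Cd44* probes shown (chr2:102677971-102678030 and chr2:102672645-102672704, minus strand) start at bases 1777 and 1965 of the transcript, in the stretch whose exons are known to be alternatively spliced.
Itga4, base 2292 of the transcript: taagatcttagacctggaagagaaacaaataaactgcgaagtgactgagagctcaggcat
Itgb1, base 2631: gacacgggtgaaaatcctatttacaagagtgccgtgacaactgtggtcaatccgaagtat
Itgb1, base 1840: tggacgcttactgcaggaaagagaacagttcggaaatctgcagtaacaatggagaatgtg
Cd44, base 1777: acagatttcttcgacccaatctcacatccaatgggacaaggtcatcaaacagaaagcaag
Cd44, base 1965: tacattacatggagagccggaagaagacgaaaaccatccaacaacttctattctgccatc

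Signals are given as log2 values relative to the 75th percentile of the array, which is 0, and differences are knockout minus control. That percentile was 66.5 to 162 in units of processed signal for knockout and 252 to 272 for control arrays, so knockout arrays gave less light. Spots well above background made up 39.7% to 45.9% of a knockout array and 47.2% to 50.6% of a control array. A single slide carried the 6 arrays. Control 1 and 2 sat in its first row and the other 4 arrays in the second. The part of brightness in the differences was not tested, and a fit on the second row alone is given as an alternative. The number of arrays limits the precision. All B cell markers tested (7 of 7) and all B1a markers (8 of 8) were well above background on all 6 arrays. *Il2ra*, the deleted gene, gave control values of 1.62, 1.13 and 1.35 and knockout values of -0.31, -0.59 and 0.86, a difference of -1.38 (SE 0.37, limma adjusted p = 0.119). *Il12b* read -2.06 ± 0.17 (SD, n = 3) in control and -2.08 ± 0.39 (SD, n = 3) in knockout samples.

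All 17 probes could be tested, and 16 of them were well above background in every sample, the dimmest *Itgal* probe being the exception. No probe of the 9 genes differed at least 2-fold with an unadjusted p of at most 0.05, where 3.64% of all 24756 tested probes did. None passed an adjusted p of 0.05 in limma either, against 0.0808% of all probes. An unadjusted limma p of at most 0.05 was reached by 1 of the 17, while 24.6% of all probes reached it. The knockout and control values did not overlap for 3 of the 17 probes, 1 higher and 2 lower, against 35.2% of all probes (15.6% higher and 19.6% lower). Of the 17 differences 11 were below 0 and 6 above, with a median of -0.16. The median over all tested probes was -0.09. Taking the brightest probe of each gene, the one with the highest mean, 7 genes were lower and 2 higher, with the same median of -0.16.

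The 95% interval of the difference lay within 2-fold in both directions for 13 of the 17 probes and for 7 of the 9 brightest probes. The 4 probes whose interval reached 2-fold were the second *Itga4* probe, the dimmest *Itgal* probe, the brightest *Cd44* probe and the *Icam1* probe.

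**Figure D1:**
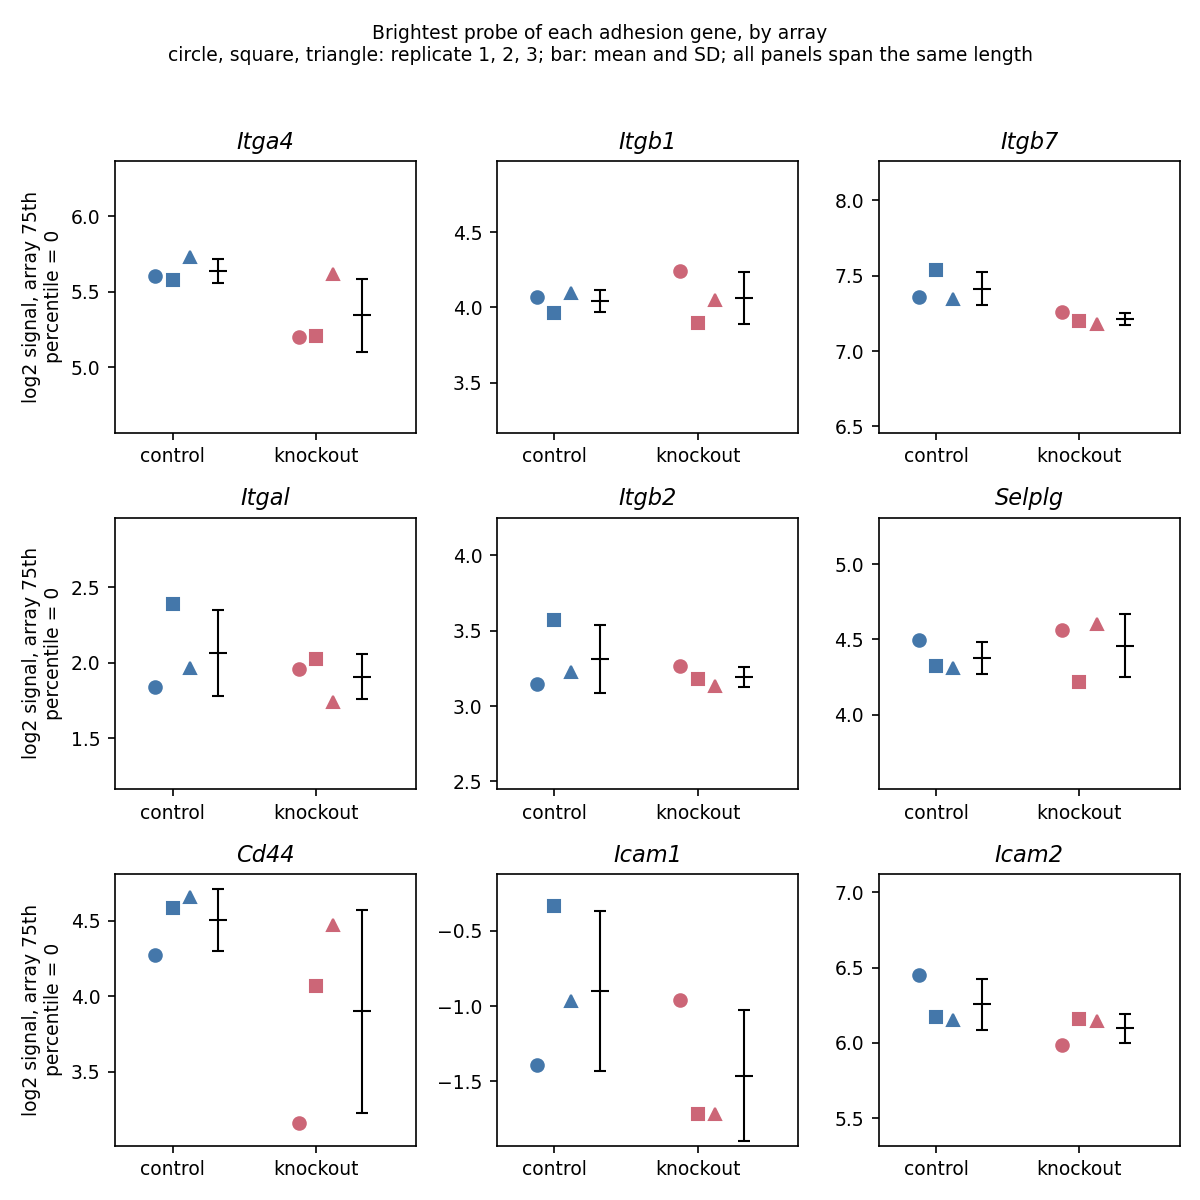
Log2 signal of the brightest probe of each gene on the 3 control arrays (blue) and 3 knockout arrays (red), relative to the 75th percentile of the array; symbols mark the replicate number and black bars the mean and SD, and the vertical scales differ in position but not in length. Only the knockout values of *Itgb7* lie all below the control values, and *Cd44* has the widest knockout spread (SD 0.67).

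The α4 integrin chain gave different values at its 2 probes. The brightest *Itga4* probe lies near the end of the long transcript (chr2:79173193-79173252, plus strand, base 9754). It read 5.61, 5.58 and 5.73 in control and 5.20, 5.20 and 5.62 in knockout samples. Knockout 1 and 2 sat below all control arrays and knockout 3 among them. Its difference was -0.30 (SE 0.17, 95% interval -0.69 to 0.10, limma adjusted p = 0.296).

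The probe in the coding part of *Itga4*, over the splice junction, read 0.68, 0.59 and 1.04 in control and 1.36, 1.40 and 1.52 in knockout samples. All 3 knockout values were above all control values. The difference was 0.66 (SE 0.17, 95% interval 0.26 to 1.05, unadjusted p = 0.00559, limma adjusted p = 0.114), so the probe did not pass the adjusted test. It is the 1 probe of the 17 with an unadjusted p of at most 0.05 as reported, and between 0 and 8 probes had one under the alternatives, 3 of them with array weights and 3 without knockout 3.

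Because these *Itga4* probes moved in opposite directions, the difference between their responses was fitted after their values had been seen, for every gene with several tested probes. The response of the coding probe exceeded that of the brightest probe by 0.95 (SE 0.14, unadjusted p = 0.000522, limma adjusted p = 0.0523 over 6501 probe pairs), which is just outside the adjusted threshold. The gap between the 2 probes did not overlap between genotypes, which held in that direction for 19.5% of all pairs, and 0.492% of pairs passed the adjusted p. The median over all pairs, taken as dimmer minus brightest probe, was 0.04. Of 19 alternatives, 15 left the *Itga4* pair outside the threshold, with values of 0.77 to 1.05 (limma adjusted p = 0.0523 to 0.536). In the other 4 it passed: normexp background correction with quantile normalization (0.73, adjusted p = 0.0486), normexp with the 75th percentile (0.98, adjusted p = 0.0330), a filter that kept only probes well above background on all arrays (0.95, adjusted p = 0.0297) and array weights (0.87, adjusted p = 0.0345). The arrays do not say which transcript forms either probe binds.

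The β1 chain did not differ measurably. The brightest *Itgb1* probe, over the junction near the end of the coding sequence, read 4.07, 3.96 and 4.10 in control and 4.24, 3.90 and 4.05 in knockout samples, and the groups overlapped. The difference was 0.02 (95% interval -0.34 to 0.38, limma adjusted p = 0.934), and it was -0.28 under normexp with the 75th percentile. The second probe read 2.09, 1.18 and 2.16 in control and 2.11, 1.99 and 2.29 in knockout samples. Control 2 was low there, and the other 5 arrays lay close together. Its difference was 0.32 (SE 0.27, limma adjusted p = 0.461), and 0.0061 without control 2.

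The β7 chain, partner of α4 in the gut-homing receptor, was slightly lower in all knockout samples. *Itgb7* (chr15:102046450-102046509, minus strand) read 7.36, 7.54 and 7.34 in control and 7.26, 7.20 and 7.18 in knockout samples, with no overlap. The difference of -0.20 (SE 0.14, 95% interval -0.53 to 0.12) did not pass the test (limma adjusted p = 0.368). For comparison, 19.6% of all tested probes had every knockout value below every control value.

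Both chains of LFA-1 gave small differences. The brightest *Itgal* probe (chr7:134477160-134477219, plus strand) read 1.84, 2.39 and 1.97 in control and 1.96, 2.02 and 1.74 in knockout samples. Control 2 was the highest of the 6 arrays and the groups overlapped. The difference was -0.16 (SE 0.19, limma adjusted p = 0.602), and 0.0050 without control 2.

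The second *Itgal* probe (chr7:134477064-134477123) showed the same high control 2, with 0.68, 1.69 and 0.96 in control and 1.05, 0.83 and 0.74 in knockout samples (difference -0.24, limma adjusted p = 0.572). The third probe, a dim one (chr7:134474711-134474767) was designed on a different transcript record and was well above background on 2 of the 3 knockout arrays. It read -3.61, -3.11 and -2.52 in control and -2.62, -1.80 and -3.83 in knockout samples, the widest knockout spread of the 17 (SD 1.02), and differed by 0.33 (limma adjusted p = 0.687).

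*Itgb2* (chr10:77027978-77028037, plus strand), the β2 chain that LFA-1 shares with CD11b, read 3.14, 3.57 and 3.23 in control and 3.26, 3.18 and 3.13 in knockout samples. The groups overlapped and control 2 was again the highest. The difference was -0.12 (SE 0.16, 95% interval -0.51 to 0.26, limma adjusted p = 0.637). It was 0.08 after quantile normalization and 0.0049 without control 2, so its direction is not settled.

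**Figure D2:**
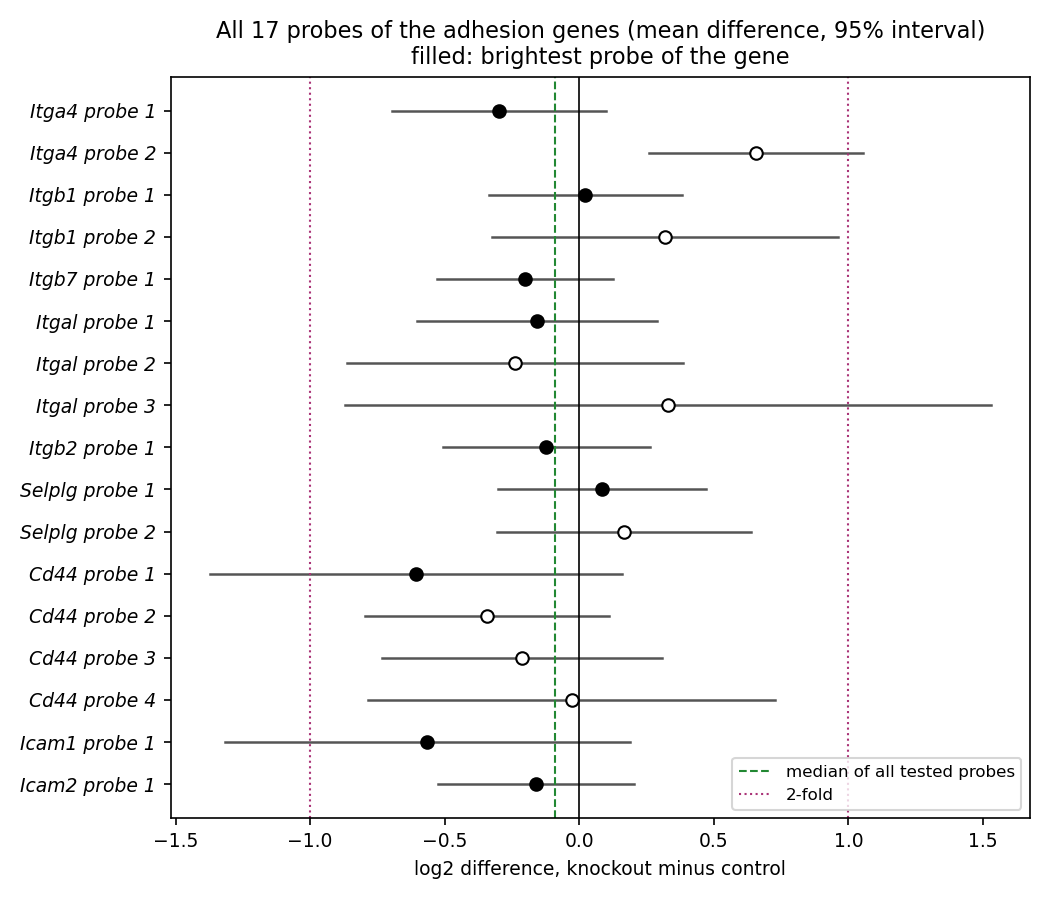
Log2 difference (knockout minus control) with its 95% interval for all 17 probes; filled points are the brightest probe of each gene, the dashed line is the median of all tested probes (-0.09) and the dotted lines mark 2-fold. The interval of 1 probe, *Itga4* probe 2, excludes 0 before adjustment, and no point lies past 2-fold.

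PSGL-1, the selectin ligand, was read by 2 probes that both gave small positive differences. The brightest *Selplg* probe (chr5:114267807-114267834, minus strand) read 4.50, 4.32 and 4.31 in control and 4.56, 4.22 and 4.60 in knockout samples, which overlapped. The difference was 0.08 (SE 0.16, 95% interval -0.30 to 0.47, limma adjusted p = 0.760). The second probe (chr5:114269206-114269265) read 1.58, 2.195 and 1.65 in control and 2.11, 1.88 and 1.93 in knockout samples, a difference of 0.17 (limma adjusted p = 0.602). Under normexp with the 75th percentile both turned below 0, at -0.22 and -0.04.

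CD44, the hyaluronan receptor, had the largest difference of the brightest probes and 1 knockout array that stood apart. The brightest *Cd44* probe (chr2:102651398-102651457, minus strand, base 5494) read 4.27, 4.58 and 4.66 in control and 3.16, 4.07 and 4.47 in knockout samples. Knockout 1 and 2 were below all control arrays and knockout 3 was among them. The difference was -0.61 (SE 0.33, 95% interval -1.37 to 0.16, limma adjusted p = 0.277), and -0.24 without knockout 1. Without that array *Icam1* had the larger difference (-0.82).

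The *Cd44* probe at base 2614 (chr2:102654278-102654337), near the end of the coding sequence, read 3.61, 3.62 and 3.57 in control and 2.87, 3.43 and 3.46 in knockout samples. The control values lay within a narrow band (SD 0.03), and all knockout values were below it. The difference was -0.34 (SE 0.19, 95% interval -0.80 to 0.11, limma adjusted p = 0.291), and -0.15 without knockout 1.

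The *Cd44* probes in the alternatively spliced stretch gave smaller differences. At base 1777 the values were -0.43, -1.0004 and -0.57 in control and -1.22, -0.65 and -0.77 in knockout samples, a difference of -0.21 (limma adjusted p = 0.544) that was -0.043 without knockout 1 and -0.38 without control 2. At base 1965 they were -1.07, -1.89 and -1.56 in control and -2.16, -1.14 and -1.30 in knockout samples, a difference of -0.03 (limma adjusted p = 0.962) that was 0.29 without knockout 1. All 4 *Cd44* probes had their lowest value on knockout 1. The response of the other 3 probes exceeded that of the brightest by 0.26, 0.39 and 0.58, none of which passed the test (lowest limma adjusted p = 0.353).

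**Figure D3:**
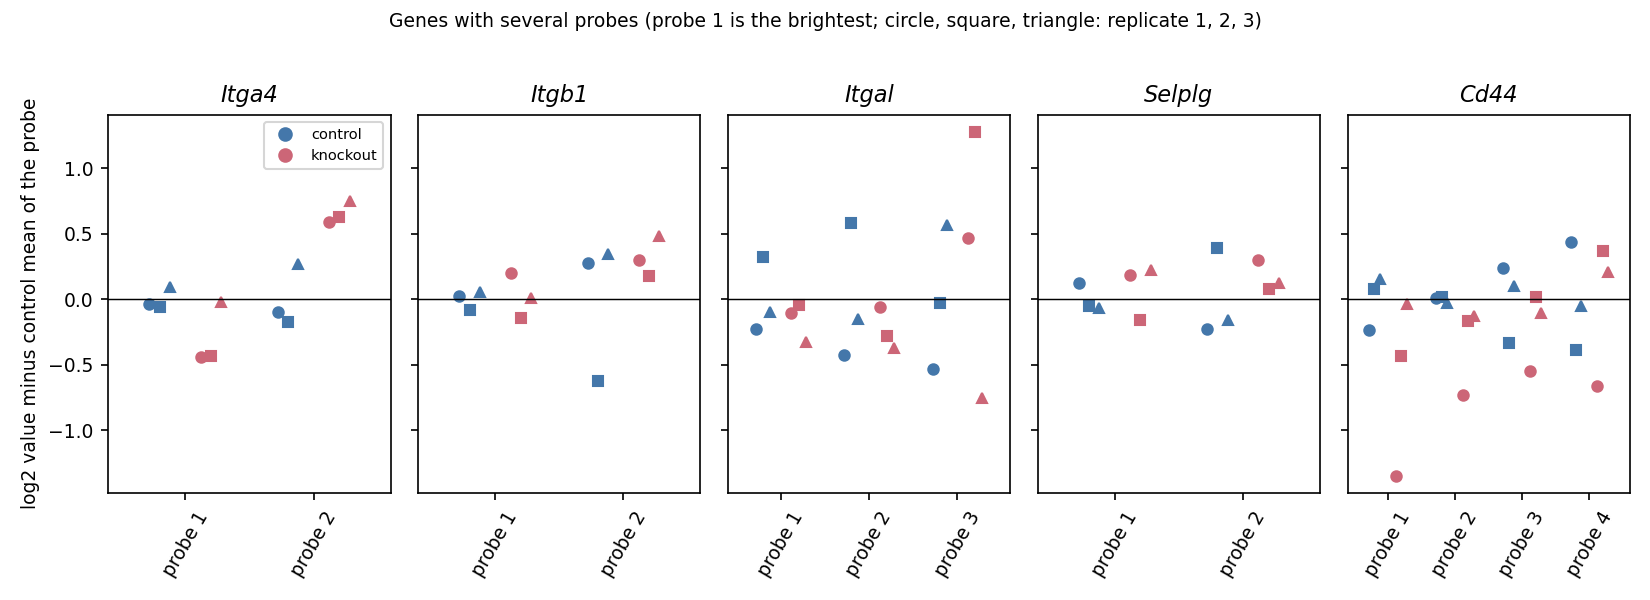
Log2 value on each array minus the control mean of the same probe, for the 5 genes with several probes (blue control, red knockout; symbols mark the replicate number; probe 1 is the brightest). The 3 knockout values of *Itga4* lie at or below 0 for probe 1 and above all control values for probe 2, and knockout 1 (circle) is the lowest array at all 4 *Cd44* probes.

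The ICAM ligands of LFA-1 were both lower on average, without passing the test. *Icam1* (chr9:20832290-20832349), which activated cells raise, read -1.39, -0.34 and -0.97 in control and -0.96, -1.71 and -1.71 in knockout samples. Knockout 2 and 3 were below all control arrays and knockout 1 was among them. The difference was -0.56 (SE 0.32, 95% interval -1.32 to 0.19, limma adjusted p = 0.294), and -0.28 without control 2. *Icam2* (chr11:106238971-106239030, minus strand), which resting lymphocytes carry, read 6.45, 6.17 and 6.15 in control and 5.99, 6.16 and 6.15 in knockout samples. The difference was -0.16 (SE 0.16, 95% interval -0.52 to 0.20, limma adjusted p = 0.509), and -0.063 without control 1, the 1 array that stood higher than the rest.

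The values of single arrays recurred across these genes. Control 2 held the highest value at 7 of the 17 probes, among them those of *Itgb7*, *Itgb2* and *Icam1* and the 2 brighter *Itgal* probes, and at 16.6% of all tested probes measured on all 6 arrays. Knockout 1 held the lowest value at 6 probes, the 4 of *Cd44* and the brightest of *Itga4* and *Icam2*, and at 15.5% of all probes. Knockout 3 held the lowest value at 5 probes, those of *Itgb7*, *Itgb2* and *Icam1* and 2 of *Itgal*, and at 8.40% of all probes. Knockout 2, the dimmest array, held the lowest value at 2 of the 17 probes and at 35.7% of all probes. The 17 probes come from 9 genes and share the same 6 arrays, so these counts are a description.

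The pattern of the brightest *Cd44* probe over the 6 arrays was most like those of *Mtap7d1* (Pearson's r = 0.998), *Dgat2* (0.996) and *Tppp* (0.996), out of 14986 probes well above background on all 6 arrays. In each of them knockout 1 was the lowest array, and without it the correlations were 0.992, 0.977 and 0.977. With 6 points that share their arrays and scaling, these values are a description.

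The other genes of the adhesion machinery were read from 10 lists of 108 genes, of which 70 could be tested by their brightest probe. At the 2-fold threshold with an unadjusted p of at most 0.05, 4 of the 70 differed, 2 higher and 2 lower, where 3.54% of all tested gene names did. Both lower genes passed the filter on dim probes through the control arrays, where they were brighter. Among the 61 list genes well above background on all 6 arrays, 2 differed, both higher, where 2.74% of all such gene names did. No gene of the lists passed the adjusted p in limma. The median difference was -0.20 against -0.12 over all gene names, and 55 of the 70 were below 0, as were 60.2% of all gene names. For 20 of the 70 (28.6%) the groups did not overlap, against 36.3% of all gene names.

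The 2 higher genes were *Gcnt1* and *Fyb*. *Gcnt1*, the enzyme that branches the O-glycans of PSGL-1, read -1.62, -2.06 and -1.50 in control and -0.48, -0.64 and -0.68 in knockout samples, with every knockout value above the control values. Its difference was 1.12 (SE 0.19, limma adjusted p = 0.080), and 0.96 without control 2, where it is no longer 2-fold. *Fyb*, the adaptor ADAP that links antigen receptors to integrin activation, read -2.15, -3.36 and -3.07 in control and -2.35, -0.58 and -1.80 in knockout samples. It overlapped between the groups (difference 1.29, SE 0.49, limma adjusted p = 0.174) and kept its call under 8 of 20 alternatives. Among those where it was lost were quantile normalization (1.13), the methods' t-test, the replicate number as a block (1.29), and the fits without control 2 (1.04), control 3 (1.18), knockout 2 (0.79) or knockout 3 (1.40). T cells are known to express *Fyb* strongly, and the T cell values are given below.

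The 2 lower genes lay at the edge of detection. *Itga5*, the α chain of the fibronectin receptor, was well above background on all control arrays and on no knockout array. *Parvb*, an adaptor of the integrin-linked kinase complex, was so on all control arrays and 1 knockout array. Their fitted differences of -1.43 and -1.32 turned to 0.41 and 0.41 under normexp with the 75th percentile. A bound was taken with knockout values raised to the lowest level detected on their arrays. Control then exceeded knockout by -0.07 for *Itga5* and by 0.09 for *Parvb* on the log2 scale. The fitted differences of these genes therefore do not measure a fold. Without control 2, *Itga5* was the 1 gene of the 70 whose fitted difference met both the 2-fold and the unadjusted p threshold. *Fyb* (1.04) and *Parvb* (-1.22) kept fitted differences of at least 2-fold and missed the p. On the second row of the slide alone, which holds a single control array, *Fyb* differed by 1.5 and *Gcnt1* by 0.90. No value is given there for *Itga5* and *Parvb*, which were dim on the knockout arrays.

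Within the lists, the genes of integrin activation were below 0 for 16 of 17 tested, with a median of -0.26 (15 of 16 among those well above background on all 6 arrays, since *Rap1a* passed the filter through the control arrays alone), and for 12 to 15 of the 17 under the 5 other scalings and background corrections, where the median was -0.53 to -0.12. *Skap2*, an adaptor of that pathway, had the lowest unadjusted p of that list, at -0.39 (limma adjusted p = 0.155). All 8 tested tetraspanins, membrane organisers that associate with integrins, were below 0, with a median of -0.37, and 6 to 8 of them under those other scalings, where the median was -0.61 to -0.21. Among them *Cd82* differed by -0.60 (limma adjusted p = 0.135). Of the integrin adhesion complex, 6 of 10 were below 0 (5 of 9 without *Parvb*, which was dim on knockout arrays), and *Ptk2*, which encodes focal adhesion kinase, differed by -0.96 (limma adjusted p = 0.128). None of these genes passed the adjusted test.

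Among the other α chains 3 of 6 tested were below 0, and 2 of the 4 that were well above background on all 6 arrays. *Itgam*, which encodes the sort marker CD11b, read 4.37, 4.21 and 4.05 in control and 4.73, 5.86 and 4.40 in knockout samples. Every knockout value lay above the control values, and the difference was 0.79 (limma adjusted p = 0.219) and 1.09 without knockout 3, where it met both thresholds. Without knockout 2, its highest array, the difference is smaller and did not meet them. The other *Itgam* probes differed by 0.27, with overlap, and by 0.67. Of the other β chains 2 were tested, *Itgb4* through the control arrays alone, and *Itgb5*, an αv partner, differed by -0.79 (limma adjusted p = 0.282). It met both thresholds without knockout 2 (-1.22) and with array weights (-1.29). Without control 3, its highest array, the difference is smaller and did not meet them. Of the other integrin ligands 4 were tested, 2 of them (*Icam4* and *Icam5*) through the control arrays alone, and both that were well above background on all 6 arrays were below 0, with *F11r* (JAM-A), a further ligand of LFA-1, at -0.65 and no overlap (limma adjusted p = 0.106).

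Of the PSGL-1 modifying enzymes, 6 of 7 were below 0 (5 of 7 after quantile normalization), *Gcnt1* being the exception. *Tpst1*, a sulfotransferase, passed the filter through the control arrays alone, and without it 5 of 6 were below 0. Of the CD44 partners and hyaluronan enzymes, 3 of 5 were below 0. *Hmmr*, a hyaluronan-binding protein of the mitotic spindle, differed by 0.76 with no overlap (limma adjusted p = 0.0996). Of the other adhesion receptors, 5 of 9 were below 0 (5 of 8 among those well above background on all 6 arrays), and *Spn*, the sialomucin CD43, differed by 0.42 (limma adjusted p = 0.203).

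**Figure D4:**
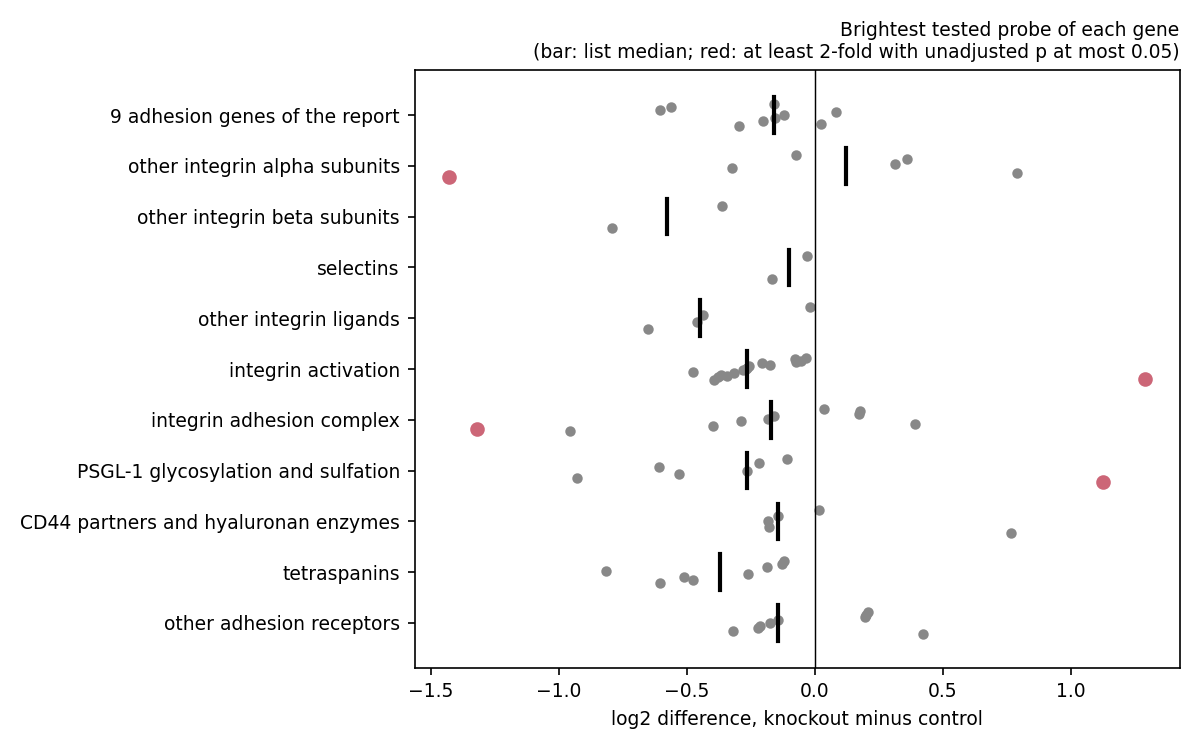
Log2 difference (knockout minus control) of the brightest tested probe of each gene, for the 9 adhesion genes and the 10 lists of related genes; black bars are list medians and red points are genes at least 2-fold different with an unadjusted p of at most 0.05. The 9 genes hold no red point, and the 8 tetraspanins all lie below 0 (6 to 8 under other scalings).

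Other cell types of the cavity also carry these adhesion molecules, so their markers were read on the same arrays. Of the T cell markers, 8 of 11 could be tested and 7 of the 8 were above 0. *Thy1* rose past the 2-fold threshold (2.13, limma adjusted p = 0.133), as did *Cd3d* (1.41, limma adjusted p = 0.189), whose groups overlapped. *Cd3d* read -2.10, -3.30 and -2.78 in control and -2.54, -1.14 and -0.28 in knockout samples. *Cd3e* differed by 0.60, and the marker below 0 was *Cd3g* (-0.28). The summed T cell signal, relative to the 75th percentile, was 9.11 to 15.3 on the control arrays and 14.1 to 17.1 on the knockout arrays, while *Cd8a* and *Cd8b1* did not pass the filter. The brightest of the tested markers, *Lck*, weighs most in the sum. It read 3.25, 2.04 and 2.41 in control and 3.36, 2.62 and 3.16 in knockout samples, which overlapped.

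Of the macrophage markers, 10 of 11 tested were below 0, with *Lyz2* at -1.08, and 1 of the 10, *Fcgr1*, passed the filter through the control arrays alone. The exception was *Marco*, at 0.92 and highest on knockout 2 (4.31). *Csf1r* was -0.31 by its brightest probe and 0.63 and 0.39 by the others. Summed macrophage signals were 20.6 to 48.2 on control and 21.4 to 54.3 on knockout arrays. Of the mast cell and granulocyte markers, 3 were tested. *Mcpt4* differed by -2.01 and *Cpa3* by -1.27, both dim (well above background on 1 and 2 of the 3 knockout arrays), and *Csf3r* differed by 0.46. Their summed signal was 108 to 118 on control and 115 to 222 on knockout arrays. That sum is nearly all *Csf3r*, which read 6.80, 6.87 and 6.76 in control and 7.16, 7.79 and 6.84 in knockout samples. *Kit*, *Fcer1a*, *S100a8* and *S100a9* did not pass the filter. Of the 5 platelet markers 1 could be tested, *Pf4*, which differed by -1.29. *Ppbp*, *Gp9*, *Gp1ba* and *Itga2b* did not pass the filter, so the values do not show platelets on these arrays. Of the NK cell markers 1 of 6 could be tested. The part of these cells in the values of the adhesion genes was not tested, and fewer cells of a type cannot be told apart from less RNA per cell.

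**Figure D5:**
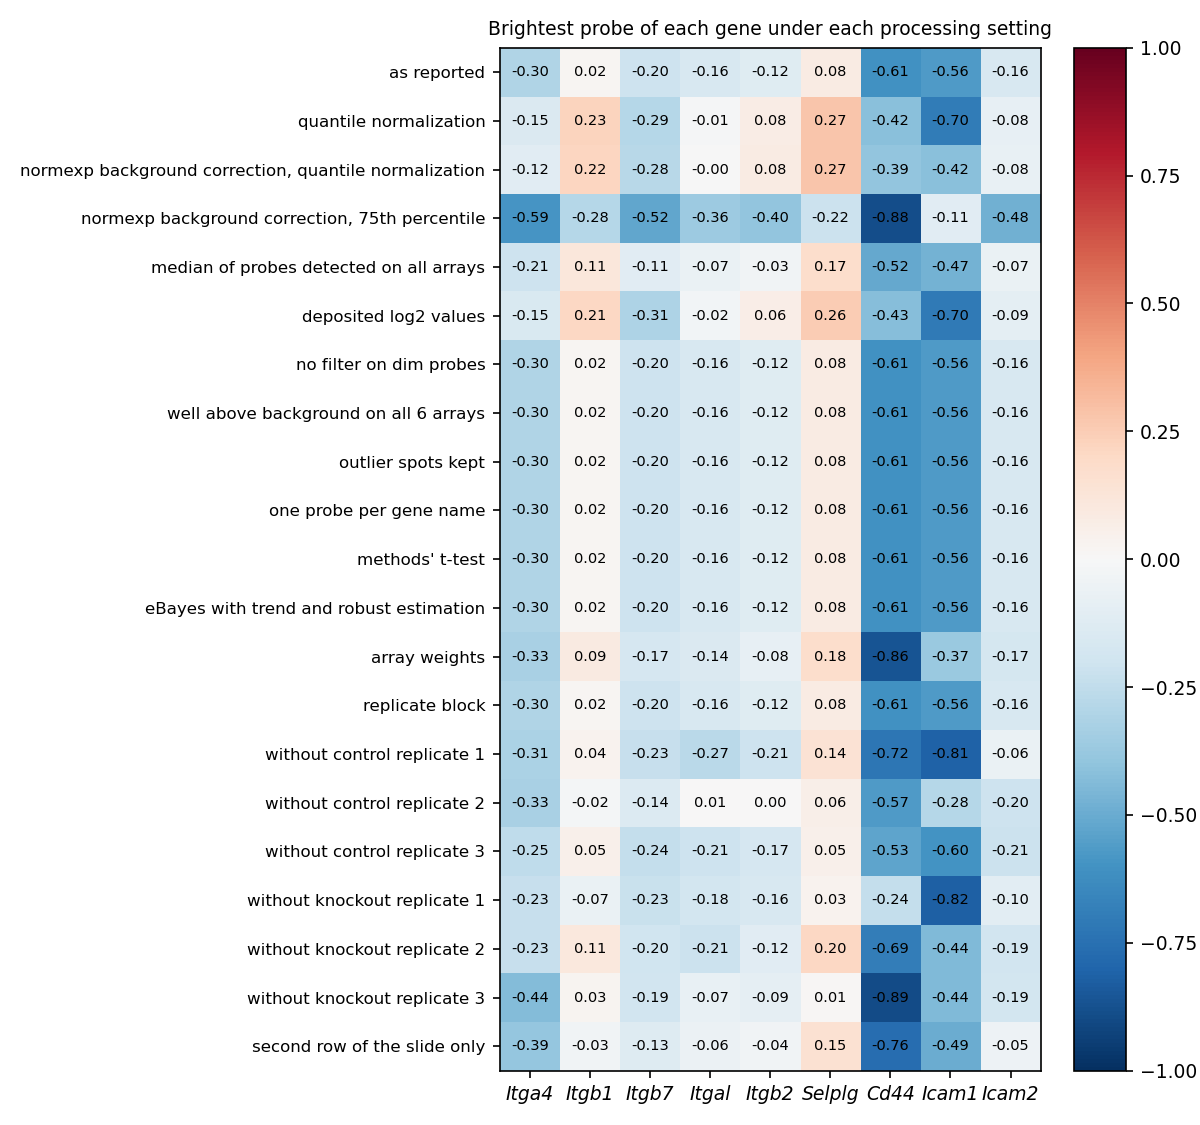
Log2 difference (knockout minus control) of the brightest probe of each gene under each processing setting, in rows; colour and number give the difference. *Itga4*, *Itgb7*, *Cd44*, *Icam1* and *Icam2* stay below 0 in every row, while *Itgb1*, *Itgal*, *Itgb2* and *Selplg* change sign in at least 1 row.

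Under each of the settings the brightest probes of *Itga4*, *Itgb7*, *Cd44*, *Icam1* and *Icam2* were lower in knockout samples, and the coding *Itga4* probe was higher. The other 4 brightest probes changed sign in at least 1 setting. No setting put any of the 17 probes past 2-fold. Normexp background correction with the 75th percentile was the 1 setting with calls among them, 6 probes with an adjusted p under 0.05, and it called 9332 of all 24756 probes.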

How the data were processed

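RNA of sorted PC B1a cells, labelled with Cy3, was read on 1-colour Agilent arrays of mouse probes, with a sample on each. Per the labels, the authors read them with Agilent Feature Extraction 10.7.1.1. They deposited spot intensities (background subtracted within an array, not scaled between arrays) and other marks of spot quality. The deposited log2 values, quantile normalized as their identical sorted columns show, served as an alternative. Here, each array's 75th percentile over 59305 non-control spots was subtracted from log2 of the processed signal. Outlier spots (163 to 251 per array) were dropped and replicate spots averaged. Testing required a probe to be well above background in all 3 samples of 1 genotype and to be measured in 2 samples of each. The fit used limma 3.58.1 (lmFit, eBayes) under R 4.3.3 with genotype as the sole term, and Benjamini-Hochberg adjustment ran over all tested probes. The 2-fold threshold is that of the paper's methods, and the p of at most 0.05 is given in the legend of its volcano plot. The steps were tested on simulated data.

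The members and lists were chosen with earlier results of these data known. Named beyond the members are list genes that met both thresholds, the gene of lowest unadjusted p in each list, the deleted genes, the 3 genes most like *Cd44* and cell type markers. Alternatives were quantile normalization, normexp (offset 50) with either scaling, scaling on the median of detected probes, the deposited values, no filter or a filter on all 6 arrays, outliers kept, 1 probe per gene, the methods' t-test, a trend with robust estimation, weights per array, a block for the replicate number, and each sample left out. The second slide row alone and the contrast between *Itga4* probes were added after seeing the data. Gene names and mm9 coordinates are those of the array files. Samples are said to be separate pools of mice in the design text only, and p-values measure the spread between them. Not every gene covered by the lists is reported here.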

Additional observations from a re-analysis of the deposited data

How the results depend on the processing

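With 3 arrays a genotype, the intervals of 4 of the 17 probes reach 2-fold. Values follow for the settings that changed a direction or a call among the 9 genes, and counts for the other genes. Normexp with the 75th percentile called *Cd44* at base 5494 (-0.88, adjusted p = 0.0149) and base 2614 (-0.63, adjusted p = 0.0211), *Icam2* (-0.48, adjusted p = 0.0487), *Itga4* (-0.59, adjusted p = 0.0311), *Itgb7* (-0.52, adjusted p = 0.0354) and the third *Itgal* probe (0.64, adjusted p = 0.0248), 6 of the 17 probes. It turned *Cd44* at base 1965 to 0.23, *Itgb1* to -0.28 and *Selplg* to -0.22 and -0.042, and moved the median of the 9 brightest probes to -0.40. *Itgb2* became 0.077 after quantile normalization, 0.081 after normexp with quantile normalization and 0.065 in the deposited values. *Cd44* at base 1965 became 0.063 with scaling on detected probes. On the second slide row alone, it was 0.023, the third *Itgal* probe -0.23, and *Itgb1* -0.032 at the brightest and -0.029 at the other probe. The *Itga4* probe contrast passed under normexp with quantile normalization (0.73), normexp with the 75th percentile (0.98), the filter on all arrays (0.95) and array weights (0.87). Leaving out 1 array gave these ranges for the brightest probes: *Itga4* -0.44 to -0.23, *Itgb7* -0.24 to -0.14, *Selplg* 0.012 (without knockout 3) to 0.20 (without knockout 2), *Icam2* -0.21 to -0.063 (without control 1), *Itgb1* -0.068 to 0.11, *Itgal* -0.27 to 0.0050, *Itgb2* -0.21 to 0.0049, *Cd44* -0.89 to -0.24, *Icam1* -0.82 to -0.28. For other probes it gave 0.57 to 0.79 (*Itga4*), 0.0061 to 0.49 (*Itgb1*), 0.051 to 0.36 (*Selplg*), -0.45 to -0.15 (*Cd44*, base 2614), -0.38 to -0.043 (*Cd44*, base 1777), -0.23 to 0.29 (*Cd44*, base 1965), -0.45 to 0.052 (the second *Itgal* probe) and -0.14 to 0.87 (the third). Genes of the other adhesion lists that met both the 2-fold and the unadjusted p threshold were 4 as reported and 0 under normexp with either scaling. They were 2 with the filter on all arrays, 2 in the methods' t-test and 1 to 5 with an array left out, the 1 being without control 2. Array weights gave more than the 4, adding *Itgb5*, *Cd63* and *Tpst1* and dropping *Fyb*. On the second slide row the lone control array is assumed to vary like the knockout arrays. *Fyb* lost its call and *Ptk2* (-1.07) and *St3gal4* (-1.04) gained one after quantile normalization and in the deposited values. *Gcnt1* kept its call in 16 of 20 alternatives and *Fyb* in 8 of 20, while *Itga5* and *Parvb* were not tested under the filter on all arrays. Of all tested probes, 900 met both thresholds as reported, 192 and 233 under normexp with quantile and with 75th percentile scaling, 592 with the filter on all arrays, 18975 without a filter, and 851 to 1581 with an array left out, the 1581 being without knockout 3. The adjusted count was 20 as reported, 6 after quantile normalization, 6 in the deposited values, 55 and 9332 under the normexp settings, 2 without a filter, 96 with the filter on all arrays, 7 with 1 probe per gene, 1 in the methods' t-test, 980 with trend and robust estimation, 689 with array weights, 0 on the second slide row (limma), and 2 to 136 with an array left out, the 136 being without knockout 3, while without control 1, 2 or 3 it was 3, 2 and 2 and without knockout 1 it was 12. Of the probes that met both 65.4% were higher as reported, 44.4% after quantile normalization, 43.2% in the deposited values, 81.2% under normexp with quantile normalization, 78.4% with scaling on detected probes, 98.2% without a filter, 84.5% with the filter on all arrays, 54.7% with array weights and 40.1% on the second slide row. Without a filter the median of all probes was 0.55 in place of -0.09. Fitting the replicate number as a block left the adjusted count over all probes at 1, changed no call among the 17 probes, and took *Fyb* from the 4 list genes, which left 3. The numbers were not treated as pairs, since same-numbered arrays correlated at 0.17, 0.06 and 0.12, although every array correlated best with its own number. The cause of these shifts was not tested.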
